A study of Mus musculus with 2 samples.

Results

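Chemokine receptors were followed in single T cells of a mouse whose regulatory T (Treg) cells lack TET2 and TET3. The 9 genes were taken by name, and all of *Cxcr3*, *Cxcr4*, *Cxcr5*, *Cxcr6*, *Ccr2*, *Ccr6*, *Ccr9*, *Ccr10* and *Cx3cr1* are among the 32285 genes counted in both genotypes. TCRβ+ cells were sorted from spleen pooled with cervical and inguinal nodes, 14 weeks after birth, and counted with a 10x Genomics 3' kit. The WT mouse was Foxp3Cre WT, so it carried the Cre recombinase as well. The DKO-severe mouse was Foxp3Cre Tet2/3 flox/flox and was called severe for its high leukocyte number. Cre is driven by Foxp3, so deletion is aimed at Treg cells and their descendants, and the other T cells were not targeted. The paper says that Foxp3-Cre has been considered leaky, and deletion in other cells was not examined here. There was 1 mouse per genotype, so no test between genotypes was possible, and every interval is an exact 95% interval that covers counting error only.

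Chemokine receptors signal through G proteins and let leukocytes follow gradients of chemokines to their place in tissue. CXCR5 draws cells into B cell follicles and CXCR4 acts in bone marrow retention and in germinal centres, while CXCR3, CXCR6, CCR2 and CX3CR1 are known from effector and memory cells that enter inflamed tissue. CCR6, CCR9 and CCR10 are known for homing to mucosa and skin.

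After filtering, 6584 WT cells (median 5616.5 UMIs) and 6360 cells of the DKO-severe mouse (median 8066) remained, and no barcode was shared. Transcripts defined gates for Cd4 Foxp3-negative T cells (1675 WT and 2407 DKO-severe cells), Foxp3-positive T cells (64 and 331), Cd8 T cells (3052 and 1735), innate-like T cells with a UMI of *Zbtb16* (88 and 196) and B cells without Cd3 (15 and 216). Of the innate-like cells, 20 and 87 also lie in the Cd4 Foxp3-negative gate. The WT B gate stood apart from its label: besides *Ms4a1* (392 CPM, UMIs per 1000000), its 15 cells held monocyte or macrophage markers at a summed 2608 CPM, against 29.5 CPM in DKO-severe. Plasma cell markers summed to 23602 CPM in these WT cells against 4324 CPM in DKO-severe, and natural killer (NK) cell markers to 550 against 46.9 CPM. Because DKO-severe cells were deeper, shares of cells with a UMI were taken after thinning each cell to 3800 UMIs. Gates were redrawn on the thinned counts, which left 34 WT and 103 DKO-severe Foxp3-positive cells. A cell that lost its *Foxp3* UMI on thinning could fall in the Cd4 Foxp3-negative gate.

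On mm10 (GRCm38), *Cxcr4* lies at chr1:128588199-128592293, *Ccr10* at chr11:101172997-101175443, *Ccr6* at chr17:8236043-8257141 and *Cxcr3* at chrX:101731535-101734269. The other 5 are on chromosome 9, with *Cxcr5* at chr9:44511787-44561877 and *Cx3cr1* at chr9:119901616-120069879. *Ccr9* (chr9:123678439-123784330), *Cxcr6* (chr9:123806475-123811760) and *Ccr2* (chr9:124101950-124113557) follow one another on the plus strand, in a cluster that also holds *Xcr1*, *Ccr1* and *Ccr3*. *Cxcr6* lies inside *Fyco1* and *Ccr9* overlaps *Lztfl1*, both on the opposite strand. *Fyco1* was at 86.8 CPM in WT against 51.8 CPM in DKO-severe innate-like cells, and *Lztfl1* at 30.1 against 18.9 CPM in Cd8 cells, while in Cd4 Foxp3-negative cells *Fyco1* was at 42.9 against 39.8 CPM and *Lztfl1* at 23.4 against 66.1 CPM. *Cx3cr1*, *Cxcr5* and *Ccr10* also overlap other annotated genes. The strand setting of the counting is not given in the sources used here, so reads of overlapping genes may not have been told apart.

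Promoter windows from RefSeq (GRCm38.p6, 250 bases before to 50 after the gene start) were found for 7 of the 9 genes. They are shown for *Cxcr4*, which was higher in DKO-severe in all 5 gates, and for the neighbours *Ccr9*, *Cxcr6* and *Ccr2*, whose differences went different ways. Sequences run 5′ to 3′ on the strand of the gene, and capitals mark CpG, the dinucleotide whose methylated form TET enzymes oxidise.
Cxcr4: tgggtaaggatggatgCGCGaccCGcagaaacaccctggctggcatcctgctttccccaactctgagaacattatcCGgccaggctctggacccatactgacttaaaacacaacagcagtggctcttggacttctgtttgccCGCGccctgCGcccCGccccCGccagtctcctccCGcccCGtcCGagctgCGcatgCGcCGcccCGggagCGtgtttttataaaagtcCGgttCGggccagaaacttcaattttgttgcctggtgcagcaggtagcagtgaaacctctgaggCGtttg
Ccr9: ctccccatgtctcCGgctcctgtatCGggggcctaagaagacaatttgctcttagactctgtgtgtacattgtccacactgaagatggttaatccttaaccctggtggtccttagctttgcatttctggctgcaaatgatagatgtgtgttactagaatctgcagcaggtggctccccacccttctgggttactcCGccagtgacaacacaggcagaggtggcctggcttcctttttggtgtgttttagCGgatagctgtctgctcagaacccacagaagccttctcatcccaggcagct
Cxcr6: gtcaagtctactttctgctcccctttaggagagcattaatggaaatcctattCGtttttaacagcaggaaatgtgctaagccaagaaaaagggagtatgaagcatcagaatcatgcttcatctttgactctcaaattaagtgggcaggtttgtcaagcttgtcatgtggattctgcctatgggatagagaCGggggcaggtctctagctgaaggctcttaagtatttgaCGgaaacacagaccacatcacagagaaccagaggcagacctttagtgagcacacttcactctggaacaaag
Ccr2: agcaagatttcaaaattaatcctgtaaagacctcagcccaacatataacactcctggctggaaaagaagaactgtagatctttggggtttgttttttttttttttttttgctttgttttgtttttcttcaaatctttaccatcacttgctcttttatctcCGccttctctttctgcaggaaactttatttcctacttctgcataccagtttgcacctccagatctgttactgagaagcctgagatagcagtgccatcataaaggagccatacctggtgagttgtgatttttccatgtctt
The *Cxcr4* window (chr1:128592250-128592549, minus strand) holds 20 CpG, and 75.2% of the 32841 windows hold as few or fewer. The windows of *Ccr9* (chr9:123766961-123767260), *Cxcr6* (chr9:123806227-123806526) and *Ccr2* (chr9:124101933-124102232), all on the plus strand, hold 4, 3 and 1. As few or fewer were found in 38.0%, 31.4% and 14.1% of windows. The RefSeq starts of *Ccr9* and *Ccr2* lie inside the genes as placed above from Gencode, so the annotations use different starts. These counts describe sequence only, and methylation was not analysed here.

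A gene was called higher or lower where its log2 ratio of DKO-severe over WT CPM was 1 or more in size, the interval left out 0, and 20 or more UMIs were seen over both genotypes. Among Cd4 Foxp3-negative cells, 5 of 9 receptors were higher (*Cxcr4*, *Cxcr5*, *Cxcr6*, *Ccr2* and *Cx3cr1*), beside 18.0% of all genes tested, and none was lower, beside 6.47%. Among Cd8 cells, 4 of 9 were higher (*Cxcr4*, *Ccr2*, *Ccr6* and *Cx3cr1*), beside 5.52%, and *Ccr9* was lower, beside 3.75%. Of the 7 receptors with enough UMIs in Foxp3-positive cells, 3 were higher (*Cxcr4*, *Ccr2* and *Cx3cr1*), beside 7.38%, and *Ccr6* was lower, beside 5.19%. Of 8 in innate-like cells, *Cxcr4* and *Cxcr5* were higher, beside 7.92%, and *Cxcr6* and *Ccr6* lower, beside 2.55%. Of 3 in B cells, *Cxcr4* was higher, beside 5.34%, and none lower, beside 2.99%. The median log2 ratio of the receptors with enough UMIs was 1.06 in Cd4 Foxp3-negative, 1.05 in Foxp3-positive, 0.98 in Cd8, -0.46 in innate-like and 0.05 in B cells. The medians over all genes with a mean of 20 or more CPM were 0.1, 0.04, -0.01, -0.01 and 0.21.

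**Figure D1:**
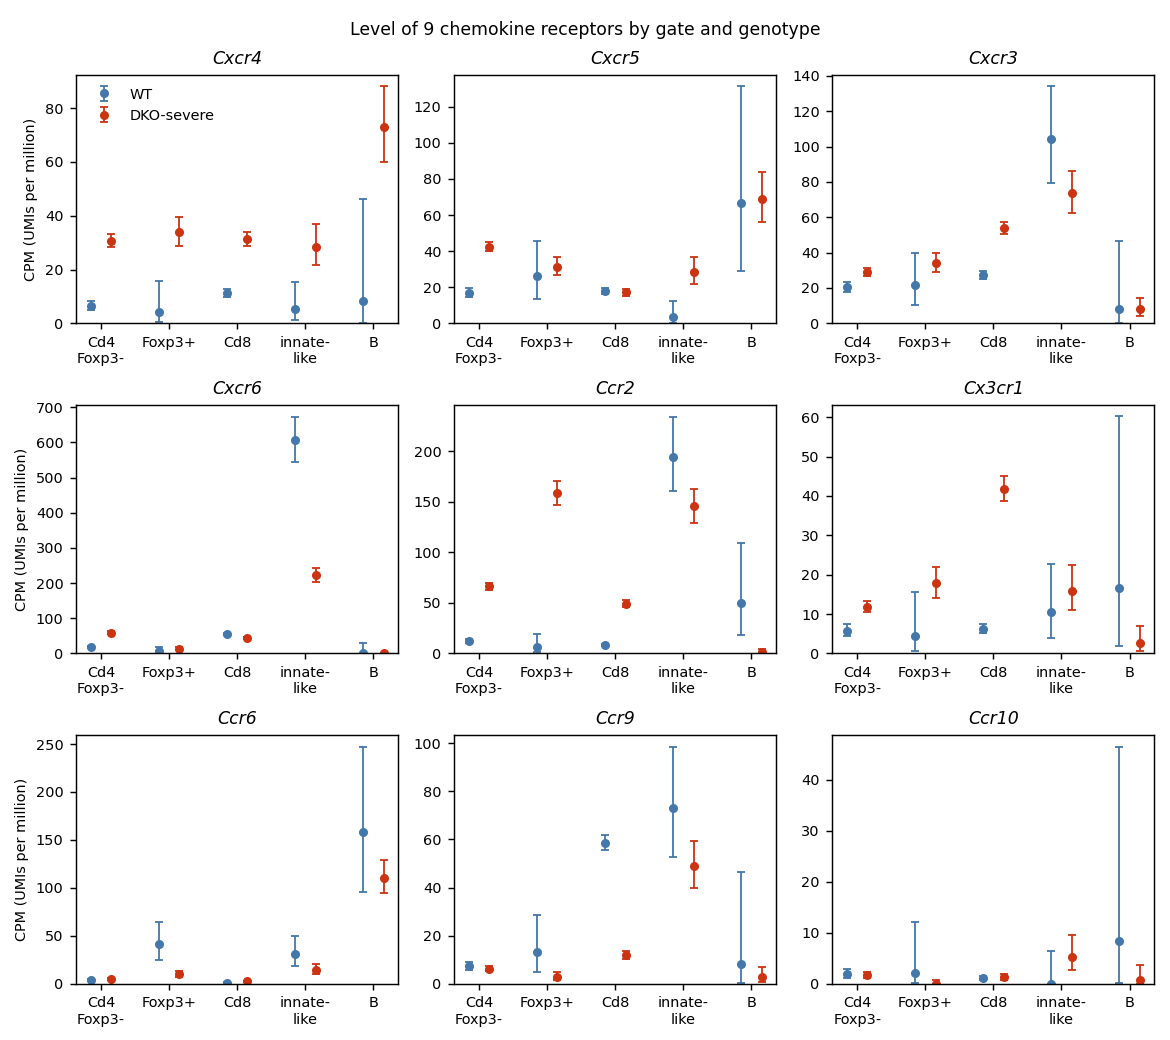
Level of each receptor (CPM, linear axis from 0) in 5 gates for the WT and the DKO-severe mouse. Points are sums over the gated cells of 1 mouse and bars are exact 95% counting intervals. *Cxcr6* stands highest in WT innate-like cells, at 606 CPM, and the wide WT bars of the B gate come from 15 cells.

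*Cxcr4*, the receptor for CXCL12, was higher in the DKO-severe mouse in every gate. Among Cd4 Foxp3-negative cells it was at 6.34 CPM in WT (62 UMIs) against 30.8 CPM in DKO-severe (715 UMIs), which gives a log2 ratio of 2.28 (1.9 to 2.68). Among Cd8 cells the levels were 11.1 and 31.3 CPM, with an interval of 1.27 to 1.72 for the log2 ratio. The DKO-severe levels of the 4 T cell gates lay between 28.6 and 33.9 CPM with overlapping intervals, and B cells stood above them at 73.1 CPM. The remaining WT values rest on few UMIs. Foxp3-positive cells had 2 (log2 ratio 2.96, 1.08 to 6.02), innate-like cells 3 (2.45, 0.84 to 4.77) and B cells 1 (3.13, 0.62 to 8.45). At equal depth a UMI was seen in 2.12% of WT against 10.1% of DKO-severe Cd4 Foxp3-negative cells, and in 4.5% against 10.7% of Cd8 cells. The Foxp3-positive call ended with gates of 2 or more UMIs (log2 ratio 0.07), which left 9 WT and 86 DKO-severe cells. With gates and sums at equal depth *Cxcr4* was not called in Foxp3-positive (1.06), innate-like (1.3) or B cells (0.03), and the innate-like call also ended without cells holding a Cd4 UMI (1.68).

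*Cxcr5*, the CXCL13 receptor of B cells and T follicular helper (Tfh) cells, was higher in Cd4 Foxp3-negative and innate-like cells. In the former it was at 17.0 CPM in WT against 42.5 CPM in DKO-severe (log2 ratio 1.32, 1.09 to 1.57), and seen in 5.04% (62 of 1229) against 12.5% (231 of 1848) of cells at equal depth. Cd8 cells, most of which should lack it, had a share of 5.84% in WT and 5.11% in DKO-severe, and the interval of the Cd4 Foxp3-negative share overlapped that of Cd8 cells in WT and lay above it in DKO-severe. The Cd8 values are not a measured background, since WT innate-like cells were lower still, at 3.47 CPM (0.42 to 12.5) against 17.7 CPM (16.0 to 19.6) in WT Cd8 cells. Median depths before thinning were 5258 and 7965 UMIs for Cd4 Foxp3-negative and 6247 and 9187 for Cd8 cells. In Foxp3-positive cells the interval of the log2 ratio was -0.59 to 1.25. The innate-like ratio of 3.04 (1.12 to 6.12) starts from 2 WT UMIs and was 0.94 without cells holding a Cd4 UMI and 1.45 with gates and sums at equal depth, neither of which was a call. DKO-severe B cells, at 69.0 CPM, stood above every T cell gate.

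*Cxcr3*, which binds CXCL9 and CXCL10 and marks type 1 effector cells, was highest in innate-like cells, with 104 CPM in WT against 73.6 CPM in DKO-severe. In Cd8 cells it was at 27.3 against 53.8 CPM. That log2 ratio of 0.98 (0.83 to 1.13) is just under the size needed for a call, and it was 1.27 with gates and sums at equal depth. The equal-depth share of Cd8 cells was 7.83% (228 of 2911) in WT against 17.5% (274 of 1566) in DKO-severe, beside 3.5% of DKO-severe B cells. In Cd4 Foxp3-negative cells the log2 ratio was 0.5 (0.27 to 0.73).

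*Cxcr6*, the receptor for CXCL16, differed in opposite directions in a pair of gates. Innate-like cells had 606 CPM in WT against 222 CPM in DKO-severe (log2 ratio -1.45, -1.66 to -1.25), and 81.7% (58 of 71) against 60.8% (79 of 130) of cells held a UMI at equal depth. With another random draw of UMIs these shares were 71.4% and 67.7%, so the size of the gap in shares depends on the draw. They were 68.3% and 49.0% on thinning to 2500 UMIs, 80.0% and 64.6% on thinning to 5000, and 87.5% and 66.8% without thinning. Cd4 Foxp3-negative cells had 17.4 against 59.3 CPM (log2 ratio 1.77, 1.54 to 2.01), with shares of 3.82% and 13.3%. Leaving out cells with *Zbtb16*, which both gates share, gave 2.59 in the Cd4 Foxp3-negative gate. In the innate-like gate the ratio was -0.91 without Cd4 cells and -0.89 at equal depth, which ends that call. In Cd8 cells the levels were 55.8 and 43.9 CPM (log2 ratio -0.35). Of the B cells, 0 of 200 DKO-severe and 0 of 12 WT cells had a UMI. By 3 counts of the total, this allows shares of up to 1.5% and 25.0%.

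*Ccr2*, the CCL2 receptor of monocytes and effector T cells, was higher in Cd4 Foxp3-negative, Cd8 and Foxp3-positive cells. It was at 12.2 CPM in WT against 66.2 CPM in DKO-severe Cd4 Foxp3-negative cells (log2 ratio 2.44, 2.17 to 2.73) and at 8.48 against 48.9 CPM in Cd8 cells (2.53, 2.29 to 2.77). Equal-depth shares were 2.28% and 10.4% of Cd4 Foxp3-negative and 1.86% and 14.1% of Cd8 cells, beside 1.0% of DKO-severe B cells (2 of 200). In Foxp3-positive cells 3 WT and 747 DKO-severe UMIs gave a log2 ratio of 4.6 (3.05 to 6.88), and 1 of 34 WT against 31 of 103 DKO-severe cells (30.1%) had a UMI at equal depth. The ratio was 2.57 with gates of 2 or more UMIs, which left 9 WT cells. The DKO-severe share was 13.0% on thinning to 2500 UMIs, against 4.17% in WT. A positive DKO-severe Foxp3-positive cell held 7.11 *Ccr2* UMIs on average before thinning. Innate-like cells had 194.5 against 145 CPM, and their shares of 45.1% and 46.9% overlapped.

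*Cx3cr1*, the fractalkine receptor of cytotoxic T cells and monocytes, was higher in DKO-severe Cd8 cells, at 6.33 CPM in WT against 41.7 CPM in DKO-severe (log2 ratio 2.72, 2.45 to 3.0). Its equal-depth share there was 1.68% (49 of 2911) against 10.2% (159 of 1566), beside 3 of 200 DKO-severe and 0 of 12 WT B cells. Of the positive WT Cd8 cells, 11 held 2 or more UMIs. In Cd4 Foxp3-negative cells it was at 5.73 against 11.9 CPM (log2 ratio 1.06, 0.64 to 1.5), and a single WT cell held 21.4% of the WT UMIs. That ratio was under 1 in 6 of 12 alternatives. The Foxp3-positive ratio of 2.03 (0.13 to 5.1) rests on 2 WT UMIs and was -1.13 with gates of 2 or more UMIs, which left 9 WT cells.

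*Ccr6*, the CCL20 receptor of B cells and type 17 T cells, was highest in B cells, at 158 CPM in WT (where 1 cell held 63.2% of the UMIs) and 111 CPM in DKO-severe. In Foxp3-positive cells it was lower in DKO-severe, with 41.4 CPM in WT (19 UMIs) against 9.75 CPM (46 UMIs) and a log2 ratio of -2.09 (-2.89 to -1.23). At equal depth 2 of 34 WT (0.72 to 19.7%) and 3 of 103 DKO-severe cells (0.605 to 8.28%) had a UMI, so a difference in shares was not detectable at this depth. The call ended with gates of 2 or more UMIs, which left 9 WT and 86 DKO-severe cells, although the ratio there was -4.06. It also ended with gates and sums at equal depth, where 3 or fewer UMIs in each genotype gave no ratio. The innate-like ratio of -1.11 (-2.0 to -0.18) was 0.15 with a limit of 5% mitochondrial UMIs. The Cd8 ratio of 1.14 (0.37 to 1.95) compares 1.1 with 2.42 CPM, and was under 1 in 4 of 11 alternatives.

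*Ccr9*, the CCL25 receptor, was lower in DKO-severe Cd8 cells, with 58.7 CPM in WT (1232 UMIs) against 11.8 CPM in DKO-severe (195 UMIs) and a log2 ratio of -2.31 (-2.54 to -2.1). It was seen in 18.5% (538 of 2911) of WT against 4.09% (64 of 1566) of DKO-severe Cd8 cells at equal depth, while 1 of 200 DKO-severe B cells had a UMI. Cd8 cells held 86.8% of all WT *Ccr9* UMIs and 34.9% of those of DKO-severe, where they were 46.4% and 27.3% of cells. Innate-like cells had 72.9 against 48.9 CPM (log2 ratio -0.58). In Cd4 Foxp3-negative cells the interval of the log2 ratio was -0.66 to 0.2. *Ccr10*, which binds CCL27 and CCL28, had 67 WT and 105 DKO-severe UMIs in all retained cells and no call in any gate; its log2 interval among Cd4 Foxp3-negative cells was -0.97 to 0.76.

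**Figure D2:**
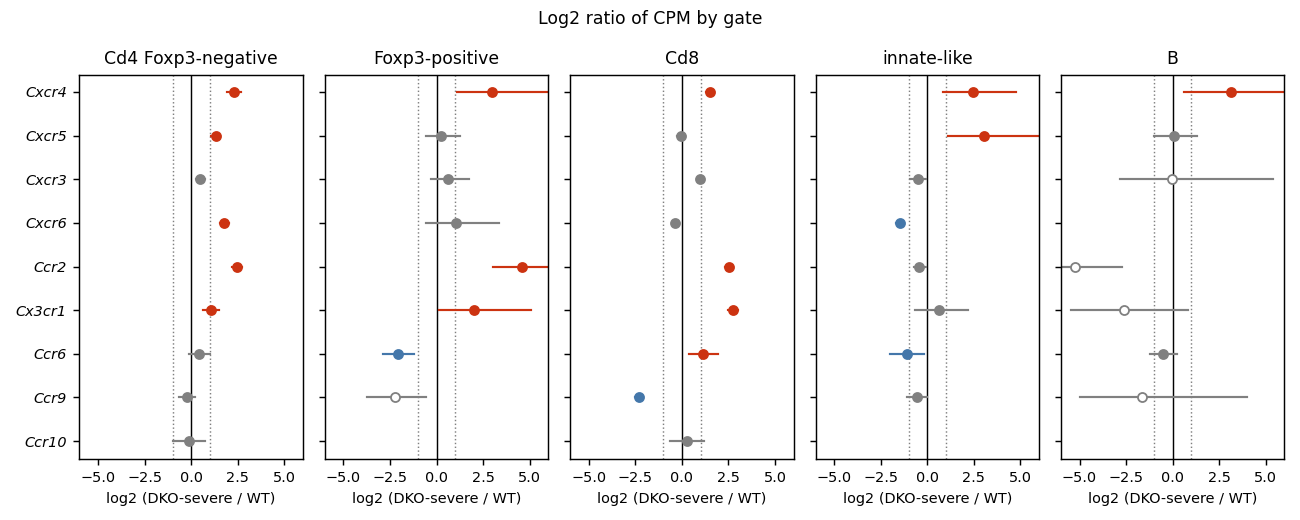
Log2 ratio of DKO-severe over WT CPM for each receptor in each gate, with 95% counting intervals cut at 6 in size. Red marks called higher, blue called lower and grey no call, open points have under 20 UMIs, dotted lines stand at -1 and 1, and ratios without a value are not drawn. *Cxcr4* is red in all 5 panels and *Ccr9* is blue in the Cd8 panel.

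Cells of both mice were then split by *Lef1*, a transcription factor of naive T cells, at equal depth. Cells with a *Lef1* UMI made up 88.3% of WT but 45.9% of DKO-severe Cd4 Foxp3-negative cells, and 91.4% against 75.0% of Cd8 cells. *Ccr2* was higher on both sides of the split, with log2 ratios of 3.16 with and 2.32 without *Lef1* in Cd4 Foxp3-negative cells, and 3.22 and 2.28 in Cd8 cells. *Ccr9* in Cd8 cells was lower on both sides, at -2.15 and -2.55. *Cxcr3* took opposite signs in Cd4 Foxp3-negative cells. With *Lef1* it was at 9.94 CPM in WT against 27.6 CPM in DKO-severe (log2 ratio 1.47, 0.92 to 2.04). Without *Lef1* it was at 109.6 against 34.8 CPM (-1.66, -2.11 to -1.19), from 144 WT cells (60 UMIs) and 999 DKO-severe cells (132 UMIs). *Ccr6* did the same on fewer UMIs, at 1.77 (0.34 to 3.41) with *Lef1* and -1.93 (-3.06 to -0.72) without. A *Lef1* or *Foxp3* UMI can be missed at 3800 UMIs, so these are ranges of cells and not cell types.

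**Figure D3:**
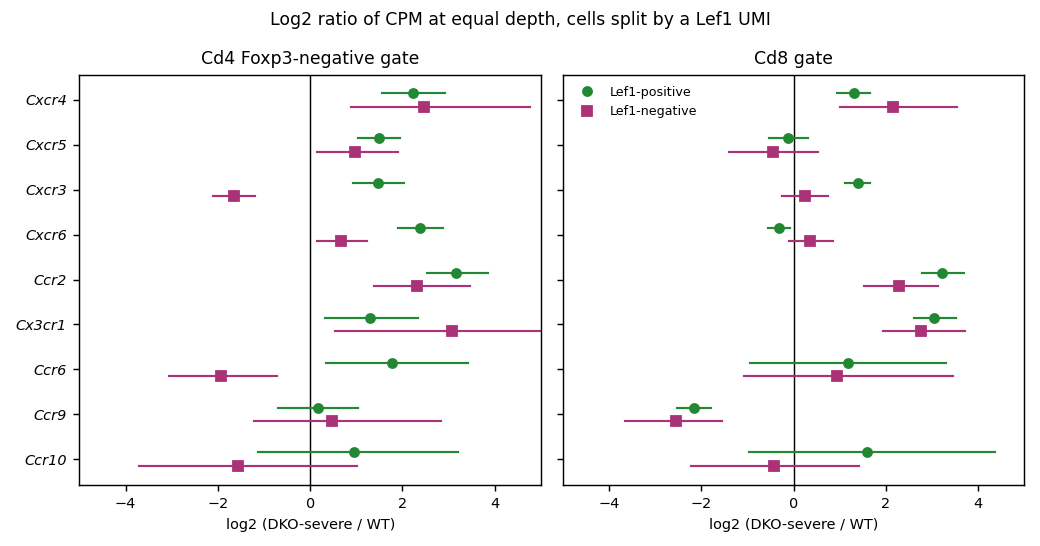
Log2 ratio of DKO-severe over WT CPM at equal depth in cells with and without a *Lef1* UMI, for Cd4 Foxp3-negative and Cd8 cells, with 95% counting intervals cut at 5 in size. *Cxcr3* and *Ccr6* lie on both sides of 0 among Cd4 Foxp3-negative cells, and *Ccr9* lies under 0 for both groups of Cd8 cells.

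Joint detection at equal depth set *Cxcr5* apart from *Cxcr6* and *Ccr2*. Among DKO-severe Cd4 Foxp3-negative cells, *Cxcr5* was seen in 19.7% of those with *Bcl6*, the transcription factor of Tfh cells, and 9.99% of those without. With and without *Pdcd1*, which encodes PD-1, it was 19.0% and 9.8%. It was seen in 5.18% of cells with *Ccr2* (10 of 193) and 13.4% without, and in 1 of 107 cells with the granzyme gene *Gzmb*. *Cxcr6* was seen in 37.3% of cells with *Ccr2* (72 of 193) and 10.5% without, and in 41.5% of those with *Tbx21*, the type 1 transcription factor, and 11.6% without. *Ccr2* was seen in 43.9% of cells with *Gzmb* (47 of 107) and 8.39% without. In WT Cd4 Foxp3-negative cells *Cxcr5* was seen in 6.83% with *Bcl6* and 4.78% without.

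Among DKO-severe Cd8 cells, *Cx3cr1* was seen in 48.6% of those with *Gzmk* (90 of 185) and 5.0% without, and in 40.6% with *Gzmb* and 3.57% without. *Ccr2* was seen in 45.3% of cells with *Cx3cr1* (72 of 159) and 10.6% without. WT Cd8 cells with *Ccr9* held *Cxcr6* in 21.6% and *Cxcr3* in 2.23%, against 15.8% and 9.1% of those without *Ccr9*. *Cxcr3* was seen in 48.6% of WT Cd4 Foxp3-negative cells with *Tbx21* (18 of 37) and 4.28% without, and in DKO-severe in 21.7% and 8.61%. A cell with 2 or more of the receptors made up 3.42% of WT against 13.1% of DKO-severe Cd4 Foxp3-negative cells, 10.9% against 18.8% of Cd8 and 63.4% against 58.5% of innate-like cells.

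**Figure D4:**
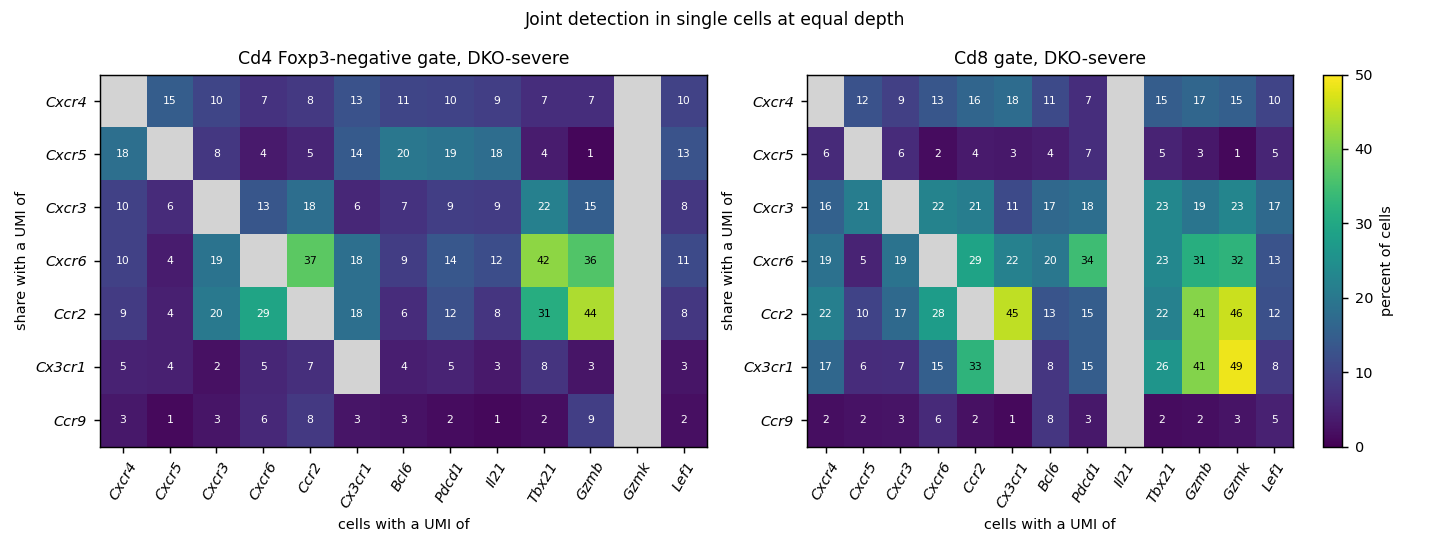
Percent of DKO-severe cells with a UMI of the row gene among cells with a UMI of the column gene, at equal depth; grey marks a gene with itself or under 20 column cells. In Cd4 Foxp3-negative cells *Cxcr6* and *Ccr2* share cells with *Tbx21* and *Gzmb* and *Cxcr5* with *Bcl6*, and in Cd8 cells *Cx3cr1* and *Ccr2* share cells with *Gzmb* and *Gzmk*.

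Of 14 other chemokine receptors, 9 had enough UMIs in Cd4 Foxp3-negative cells, and 7 were higher and 2 lower, beside 18.0% and 6.47% of all genes. The lower genes, named after their values were seen, were *Ccr7* (-1.96, -2.07 to -1.86), which brings naive cells into lymph nodes, and *Ackr4* (-1.3, -2.14 to -0.47). *Ccr3* started from 3 WT UMIs (4.87, 3.31 to 7.16) and *Cxcr2* from 2 (4.23, 2.33 to 7.29), while *Ccr1*, *Ccrl2* and *Ccr8* had log2 ratios of 4.18, 2.4 and 2.09. In Cd8 cells the higher genes included *Cxcr2* from 1 WT UMI (4.59, 1.94 to 9.97) and *Ccr1*, with 0 WT and 21 DKO-severe UMIs. With a floor of 3 UMIs in place of 0, the *Ccr1* log2 ratio was 3.15, and the lower limit of its interval was 2.73. A single cell held 42.1% of the DKO-severe UMIs of *Cxcr2* and a single cell 23.8% of those of *Ccr1*. *Ccr7* was lower there too (-1.06). Of the chemokine ligand genes with enough UMIs, 11 of 14 were higher in Cd4 Foxp3-negative cells and 5 of 10 in Cd8 cells, beside 18.0% and 5.52% of all genes, with 0 and 1 lower. *Ccl5* had 585 CPM in WT against 5668 CPM in DKO-severe Cd8 cells. Among ligands of the 9 receptors in Cd4 Foxp3-negative cells, *Cxcl9* had 0 WT and 64 DKO-severe UMIs, of which 1 cell held 75.0%. *Cxcl16* had 3 and 31, *Cxcl13* had 0 and 12, and *Cxcl12* and *Ccl20* none. Of 28 genes of receptor signalling and desensitisation, 6 were higher and 2 lower in Cd4 Foxp3-negative cells, shares near the 18.0% and 6.47% of all genes tested. Among them were *Grk5* (2.5) and *Rgs16* (2.39), which dampen receptor signals, and, lower, *Plcb2* (-1.75). *Pik3r5* (-1.05), named after its value was seen, was the other lower gene. In Cd8 cells 4 were higher, *Rgs1* at 1.22, beside 5.52% of all genes, and 0 lower, beside 3.75%.

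Transcripts of other cell types moved with several of these results. In Cd4 Foxp3-negative cells monocyte or macrophage markers were higher for 6 of 6 genes, summing to 58.8 CPM in WT against 433 CPM in DKO-severe, and granulocyte markers for 6 of 6, summing to 85.2 against 2832 CPM. Granulocyte markers summed to 78.0 against 1408 CPM in Cd8, 76.2 against 3818 CPM in Foxp3-positive and 69.5 against 3916 CPM in innate-like cells. Cells with 2 or more UMIs of other-cell markers made up 30.3% of DKO-severe Cd4 Foxp3-negative cells with *Cx3cr1* and 8.96% of those without. The shares were 20.7% and 7.77% for *Cxcr4*, 19.2% and 8.03% for *Cxcr5*, 17.2% and 9.58% for *Ccr2*, and 8.66% and 11.03% for *Cxcr6*. Among DKO-severe Foxp3-positive cells they were 26.7% with and 15.9% without *Ccr2*, where monocyte or macrophage markers summed to 17.4 CPM in WT against 571 CPM in DKO-severe, and among innate-like cells 48.5% with and 6.13% without *Cxcr4*. In Cd8 cells they were 4.76% with and 3.76% without *Cx3cr1*. These shares were taken without thinning, and depth differed between the cells compared. Median UMIs with and without the receptor were 11858 and 7777.5 for *Cx3cr1* in Cd4 Foxp3-negative cells. They were 14811 and 7498 for *Cxcr4* in innate-like cells, but 5223 and 9673 for *Cx3cr1* in Cd8 cells. The part of depth in the shares was not tested. With the cells holding other-cell markers left out, 5 of 9 receptors were called in Cd4 Foxp3-negative cells, all higher. That stands beside 2151 higher and 913 lower of 13540 genes. In Cd8 cells 3 of 9 were higher and 1 lower, beside 606 and 473 of 13152 genes. In Foxp3-positive cells 2 of 7 were higher and 1 lower, beside 725 and 511 of 9744. In innate-like cells 2 of 7 were higher and 1 lower, beside 502 and 200 of 8574. The Cd8 ratios of *Ccr2* and *Cx3cr1* were 2.93 and 3.01. The calls that ended were *Ccr6* in Cd8 cells (log2 ratio 0.7), *Cx3cr1* in Foxp3-positive cells (1.45) and *Ccr6* in innate-like cells (-0.82). Of the DKO-severe Cd8 cells with *Ccr6*, 46.2% held such markers, against 3.6% of those without, at median depths of 16171 and 9174 UMIs. In Cd4 Foxp3-negative cells the ratios of *Cxcr4*, *Cxcr5*, *Cxcr6*, *Ccr2* and *Cx3cr1* were 2.12, 1.23, 1.95, 2.44 and 1.26. Foxp3-positive cells gave 2.79 for *Cxcr4*, 4.41 for *Ccr2* and -1.58 for *Ccr6*, and innate-like cells 2.13 for *Cxcr4*, 2.44 for *Cxcr5* and -1.17 for *Cxcr6*.

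Over the 10 gate-by-genotype profiles, the gene most like *Cxcr3* by Pearson's r of log2(CPM + 5) was *Cysltr2* (0.97), that most like *Ccr2* was *Higd1a* (0.97) and that most like *Ccr6* was *Psme4* (0.96). Without the B profiles, 3 of the 27 nearest genes were shared. The profiles share mice and libraries, and r is a description.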

How the data were processed

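The deposited values are raw UMI counts per gene and barcode for 1 WT and 1 DKO-severe mouse; per the submitters' processing notes and file headers, the authors used Cell Ranger 7.1.0 with mm10 and Seurat, and genotype was read from hashtags. Barcodes with the other hashtag, under 500 genes or over 10% mitochondrial UMIs were dropped. The automatic threshold of Scrublet (scanpy 1.11.5) marked 0 doublets, so the highest 6% of scores were removed. Gates needed 1 UMI of Cd3d, Cd3e or Cd3g (none for B cells, which needed *Cd79a* and a second B cell gene) and of the gene that names the gate; Cd4 and Cd8 cells held no UMI of the other, and innate-like cells none of Cd8 or Foxp3. The matrices held 45294779 WT and 69692053 DKO-severe UMIs. Counts were summed per gate and mouse (CPM), with exact 95% binomial (Clopper-Pearson) and conditional ratio intervals. Cells are not replicates, so no p-value was computed. Cells shallower than 3800 UMIs were left out of shares (688 WT and 476 DKO-severe). The ratio, interval and call were tested on simulated count sums of the Cd4 Foxp3-negative gate. Gating, shares, joint detection and the smaller gates were not simulated. All 9 receptors are named; from the other lists, at most 6 called genes per list and gate by size, plus ligands of the receptors. Some results are not reported here. The receptors and lists were chosen with earlier results of these data known. Alternatives changed the cell filter, doublet removal, CPM total, scaling, pseudocount, weights, gates, depth and low-count filter. Code ran in Python 3.11.15 with numpy 2.4.6, scipy 1.17.1 and pandas 2.3.3.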

Additional observations from a re-analysis of the deposited data

Results flagged for a closer look

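*Cxcr6* differed between the mice in opposite directions in 2 gates, with log2 ratios of DKO-severe over WT of 1.77 in Cd4 Foxp3-negative and -1.45 in innate-like cells. *Ccr6* did so as well, with 1.14 in Cd8, -2.09 in Foxp3-positive and -1.11 in innate-like cells. Neither difference between gates was tested, since there was 1 mouse per genotype. The innate-like *Cxcr6* ratio was -0.91 without Cd4 cells and -0.89 at equal depth, while that of Cd4 Foxp3-negative cells was never under 1.52. The *Ccr6* ratio was under 1 in size in 4 of 11 alternatives for Cd8 and 4 of 12 for innate-like cells. In innate-like cells it was 0.15 with at most 5% mitochondrial UMIs.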

How the results depend on the processing

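No paired analysis was possible because there was 1 mouse per genotype. Of 473 alternative values of 42 log2 ratios, 420 moved by less than the counting interval, 51 moved further and 2 called ratios changed sign. One was *Cx3cr1* in Foxp3-positive cells (-1.13 with gates of 2 or more UMIs, which left 9 WT cells). The other was *Ccr6* in innate-like cells (0.15 with at most 5% mitochondrial UMIs). The alternative with no minimum of UMIs cannot change a ratio, so its values are among the 420 by construction. The count of receptors called stayed at 4 to 5 in Cd4 Foxp3-negative and 4 to 6 in Cd8 cells. Over all genes, 967 to 2640 were higher and 276 to 1152 lower in the former, and 158 to 959 and 53 to 592 in Cd8 cells. In Foxp3-positive cells the receptor count went from 4 to 1 with gates of 2 or more UMIs, beside 354 genes higher and 408 lower of 7785. It went to 1 with gates and sums at equal depth, beside 317 and 176 of 4452. In innate-like cells it went from 4 to 0 at equal depth, beside 213 and 104 of 5661. Without cells holding Cd4 it went to 1, beside 289 and 140 of 7180. In B cells it went from 1 to 0 at equal depth, beside 86 and 132 of 5505. It was 2 with no minimum of UMIs and 3 with Cd3-positive cells kept, beside 403 and 315 of 10924 and 711 and 353 of 9619. The cause of these changes was not tested. Shares of WT and DKO-severe cells had intervals that did not overlap for 13 of 45 pairs of receptor and gate, and for 10 to 18 under other depths, seeds or cells. The same count was not made over all genes, so it gives no result particular to the receptors. Few WT cells in the Foxp3-positive, innate-like and B gates limit every ratio there.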
